A study of Mus musculus with 24 samples.

Results

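The genes described here encode the nuclear subunits of respiratory complexes II to V and cytochrome c. They were chosen by symbol alone, as every gene of the array's probe annotation whose symbol starts with Uqcr, Atp5 or Cox4 to Cox8 or is one of the Sdh subunits, Cyc1 or Cycs. The rule found 47 genes among 16593 named on the array, with 57 probes. Of these, 35 had a probe above background (detection p below 0.01) on at least 3 of the 24 arrays and were tested, beside 4846 genes in all, and the other 12 were not. In the mutant at 12 h and at 24 h of culture, 11 of the 35 (31.4%) were lower than in wild type, where 15.9% and 8.17% of all genes were, and 5 and 6 were higher (34.3% and 8.61% of all genes). This split depended on the scaling. Centring the arrays over all probes turned it to 13 higher and 6 lower at 12 h and 5 and 1 at 24 h. With that centring 63.6% of all genes were higher and 5.94% lower at 12 h, and 8.96% and 1.59% at 24 h. How many of all genes passed the detection filter through the mutant arrays alone was not counted, so their shares may not be a like yardstick.

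Complex II passes electrons from succinate to ubiquinone, complex III passes them on to cytochrome c, complex IV hands them to oxygen, and complex V uses the proton gradient that III and IV build to make ATP. Most subunits are encoded in the nucleus and imported, so their messages lie in the cytoplasm. Reticulocytes, the last RNA-bearing stage of red cells, have lost the nucleus, and they shed their mitochondria and break down their remaining RNA as they mature.

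Blood rich in reticulocytes from adult male C57BL/6J mice was cultured ex vivo, with RNA samples drawn before culture (0 h) and after 12 and 24 h. The design text calls the samples biological replicates. Each time had 3 wild-type (wt) and 5 mutant (mut) samples, 1 Illumina bead array each, and all groups shared strain, sex, age class and culture. Which gene the mutants carry a change in is not given in the labels, so the genotype could not be checked by its level, nor can it be said in which cells it acts. All signals below are log2 normalized intensities, all differences are log2 differences ± SE, and a member is called higher or lower where the limma fit across all 4846 genes gave a Benjamini-Hochberg adjusted p below 0.05.

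Detection set what could be read. The wt arrays measured 10 to 20 of the 35 members above background at 0 h, 23 to 24 at 12 h and 25 to 27 at 24 h, and the mut arrays 18 to 31, 31 to 35 and 30 to 34. The 0 h arrays stood apart, with median raw intensities of 132 to 298 against 38.7 to 44.7 on the 16 later arrays. At 0 h, wt arrays 2 and 3 and mut arrays 1 and 2 had medians over 200 and the fewest members detected within their genotypes. Time and this background cannot be told apart. Reticulocyte markers (globins, Alas2, Slc4a1 and others) were detected in every group, 6 to 10 of 11 genes per array. The exceptions were Epb42, Rhag, Ermap and Bpgm, above background on no array of wt 0 h, wt 12 h or mut 0 h. At 24 h in wt, Epb42, Ermap and Bpgm were still below it. The array numbers limit the precision, most of all with 3 wt arrays a group.

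Complex IV isoforms marked the limits of the list. Muscle and heart forms (Cox6a2, Cox7a1, Cox8b), the lung form Cox4i2 and the testis forms Cox7b2 and Cox8c were not above background on any array, whereas their common counterparts Cox4i1, Cox6a1, Cox6b1, Cox7b and Cox8a were measured. Cox6b2, known as the testis form of the subunit that Cox6b1 supplies elsewhere, was the exception. One of its 2 probes was detected on 21 arrays and the other on none, so which transcript gave the signal was not settled. The common form Cox7a2 was detected on 2 arrays only and Atp5o, the complex V stalk subunit OSCP, on 1, which left both just outside the filter, and Cycs on 3 arrays was just inside. Sdhd, Uqcrfs1 (the Rieske iron-sulfur protein), Uqcrq and Atp5k were never detected. Sdha was not analysed here. The members detected on all 24 arrays numbered 10.

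**Figure D1:**
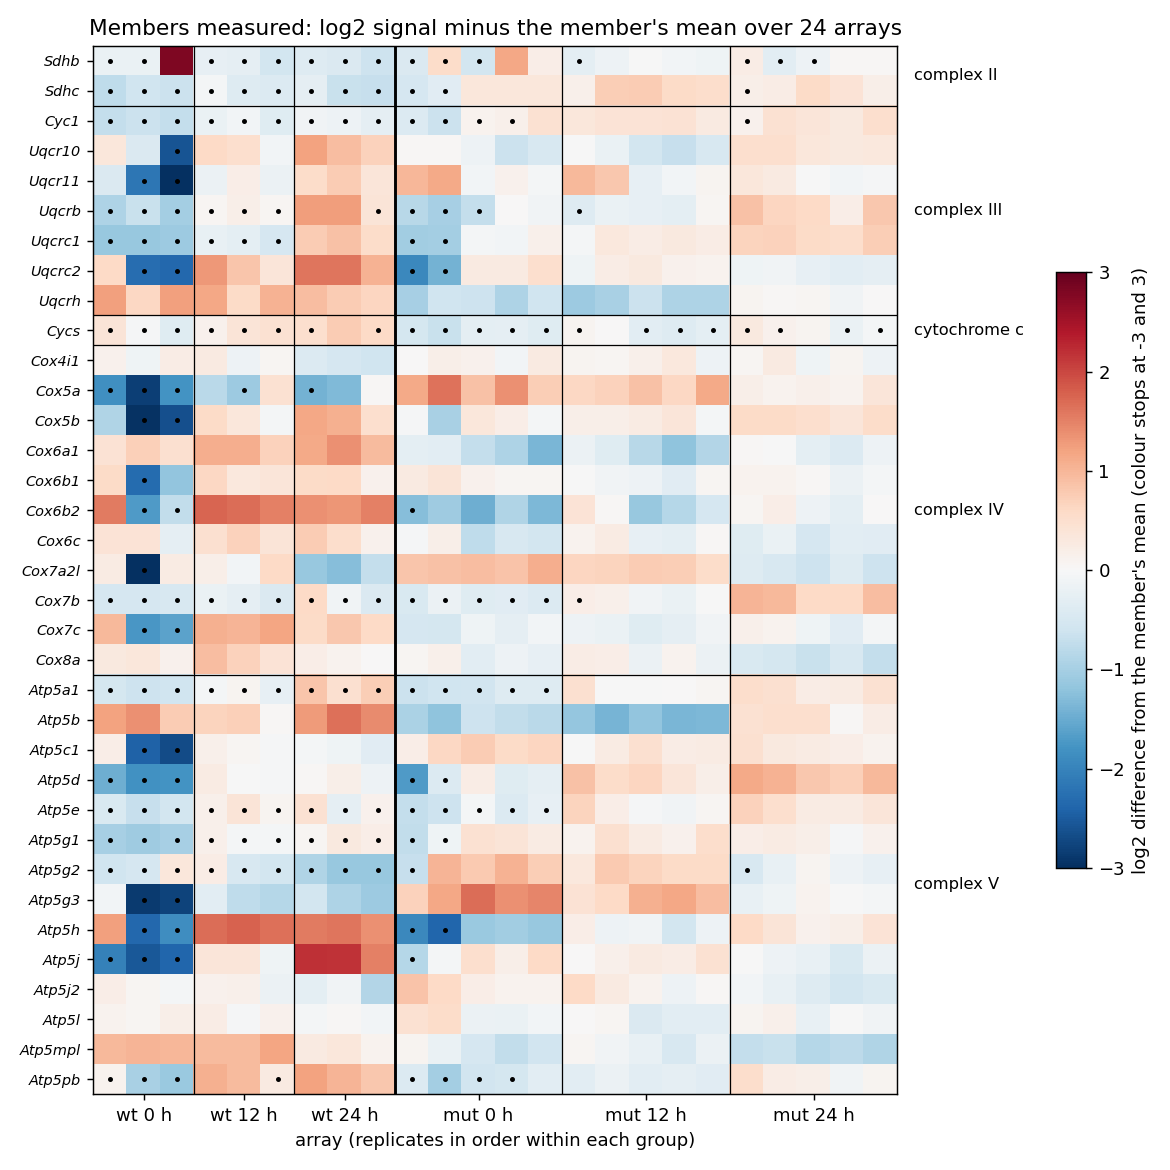
Signal of the 35 members tested (rows, by complex) on each of the 24 arrays (columns, by group), as the log2 difference from the member's own mean over all arrays. Red is above and blue below that mean, and a black dot marks an array on which the probe was not detected. Wild-type 0 h arrays 2 and 3 are blue and dotted for many members, whereas Uqcrh, Atp5b, Cox6a1 and Atp5mpl are redder in wt than in mut at each time.

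At 12 h, 16 of the 35 members differed between genotypes, 5 higher and 11 lower in mut, where 50.2% of all genes tested were called, 34.3% higher and 15.9% lower. At 24 h 17 members differed, 6 higher and 11 lower, against 16.8% of all genes, 8.61% higher and 8.17% lower. At 0 h 20 differed, 14 higher and 6 lower, against 42.5% of all genes, 34.1% higher and 8.4% lower. As shares of the members, lower calls were 17.1%, 31.4% and 31.4% at 0, 12 and 24 h, above the share over all genes at each time. Of the 35, 6 members (17.1%) were lower in mut at all 3 times, against 92 of 4846 genes (1.9%). These were Uqcrh, Cox6a1, Cox6c, Atp5b, Atp5mpl and Cycs. The count was 2 (Atp5b and Atp5mpl) with arrays centred over the kept probes, and 0 when centred over all probes or in the authors' values, where no member was lower at 0 h. Cycs was below background in both groups at 0 h. Cox5a, Sdhc and Cyc1 were called higher at all 3 times. However, Sdhc and Cyc1 passed the detection filter through the mut arrays alone, which favours a higher signal there, so their calls are no separate support. Of the 35, 7 members (Sdhc, Cyc1, Cox7b, Atp5a1, Atp5e, Atp5g1 and Atp5g2) were above background on no wt array, so their fitted differences between genotypes are not given. Among them, Sdhc and Cyc1 entered the higher counts at all 3 times. Atp5g1 did so at 0 h, Atp5g2 at 0 and 12 h, and Cox7b at 24 h. Not called at any time were 7 members. The 24 h count fell to 8, 9 and 11 without wt array 1, 2 or 3 and to 11, 10 and 11 without mut array 3, 4 or 5. At 0 h the arrays of lower background alone (wt array 1 and mut arrays 3 to 5) gave 11 higher and 10 lower, and those of higher background 12 and 4. The groups did not overlap for 14, 19 and 26 members at 0, 12 and 24 h, where 22.4%, 59.8% and 38.7% of all genes did not. In bulk RNA of this kind, fewer cells of a type and less RNA per cell cannot be told apart.

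The split of calls moved with the scaling of the arrays. Centring each array on its median over all probes gave 13 higher and 6 lower at 12 h, 5 and 1 at 24 h, and 21 and 0 at 0 h. Over all genes that centring called 63.6% higher and 5.94% lower at 12 h, 8.96% and 1.59% at 24 h, and 36.6% and 0.908% at 0 h. The authors' processed values gave 1 higher and 16 lower at 12 h, 7 and 9 at 24 h, and 12 and 0 at 0 h, where 8.4% and 18%, 27% and 7.08%, and 34% and 3.59% of all genes were called. These scalings moved the median of all genes at 12 h from 0.29 to 0.78 and 0.09, so the members were also set against it. The median member at 12 h was -0.05, so its distance from the median of all genes was -0.35, and this distance was -0.32 after centring and -0.63 in the authors' values. At 24 h the 3 distances were -0.51, -0.05 and -0.31, and at 0 h they were 0.08, 0.60 and 0.23.

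**Figure D2:**
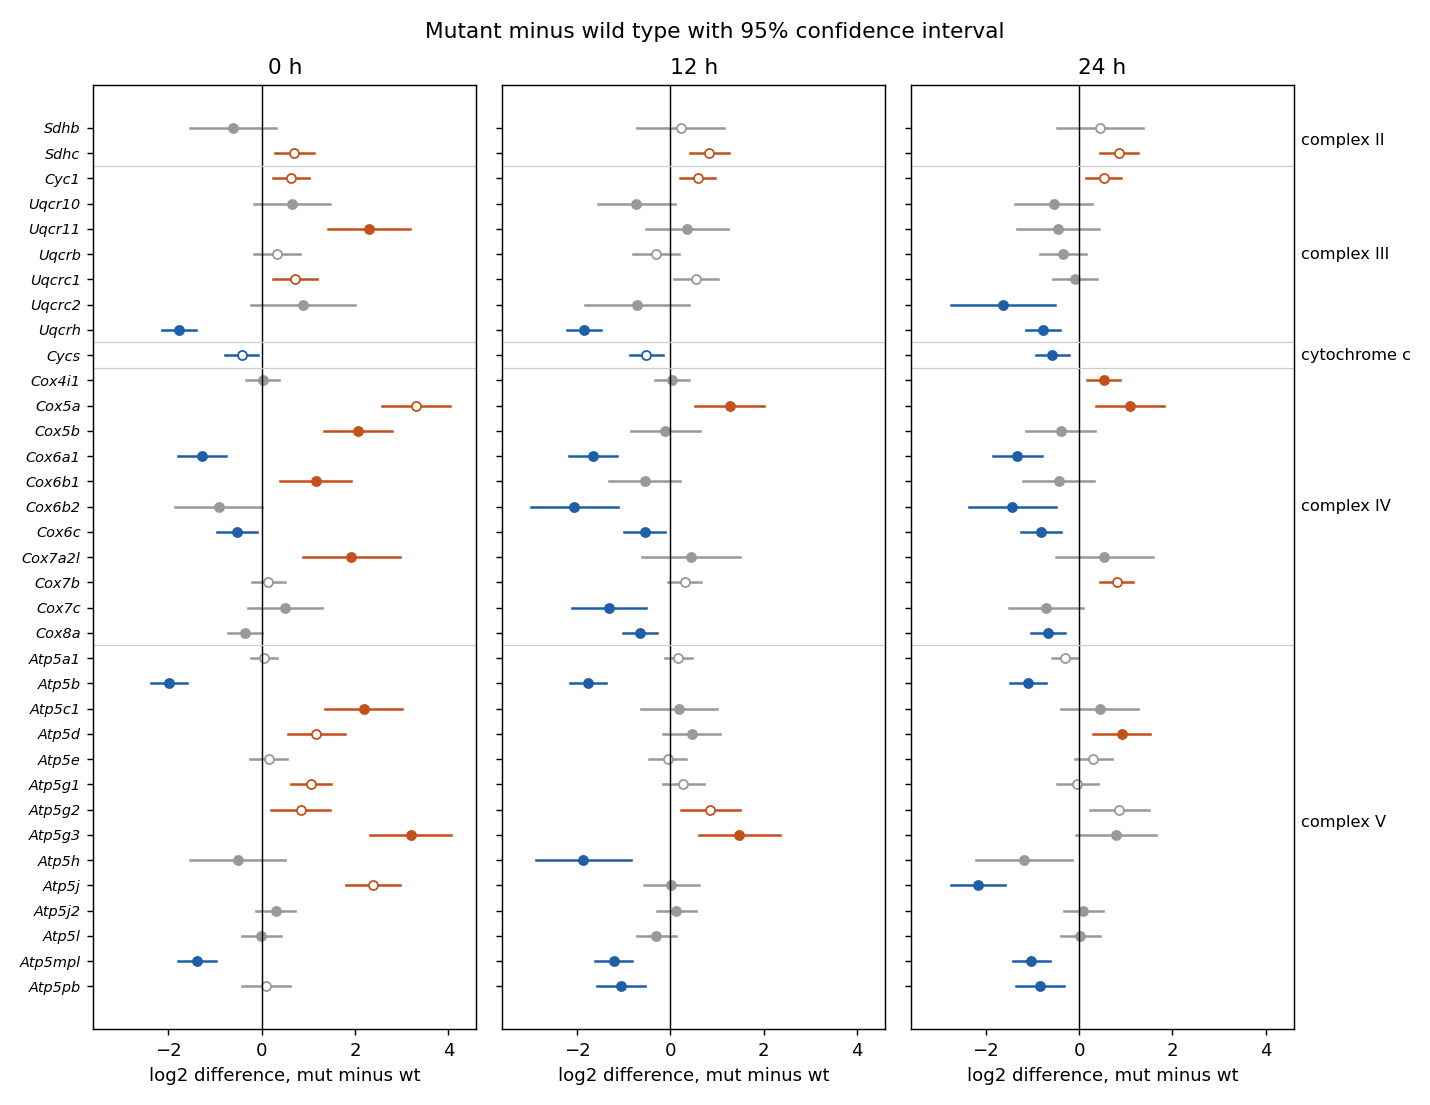
Log2 difference between mut (n = 5) and wt (n = 3) for each of the 35 members at 0, 12 and 24 h, with its 95% confidence interval from the limma fit. Orange is called higher, blue called lower and grey not called, and an open point marks a member whose probe was not detected on any array of at least 1 of the groups. Uqcrh, Cox6a1, Atp5b and Atp5mpl lie below 0 in all panels.

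The sequences before the transcription start are shown for 3 of the members lower at all 3 times, and for Cox5a, higher at all 3, so that members that moved together can be read side by side. Promoters came from RefSeq (GRCm38.p6), which matched 35 of the 47 members, and Atp5mpl and Cox6c were not among them. The 250 bases before the start lie at chr4:116075071-116075320 on the minus strand for Uqcrh, at chr10:128083057-128083306 on the plus strand for Atp5b, at chr5:115348959-115349208 on the minus strand for Cox6a1 and at chr9:57520982-57521231 on the plus strand for Cox5a. Capitals mark matches on either strand to motifs known from nuclear genes for mitochondrial proteins, NRF1 (GCGCANGCG) and ETS (CCGGAAG), and to the CCAAT box (CCAAT). None of the marked motifs overlapped another kind.
Uqcrh: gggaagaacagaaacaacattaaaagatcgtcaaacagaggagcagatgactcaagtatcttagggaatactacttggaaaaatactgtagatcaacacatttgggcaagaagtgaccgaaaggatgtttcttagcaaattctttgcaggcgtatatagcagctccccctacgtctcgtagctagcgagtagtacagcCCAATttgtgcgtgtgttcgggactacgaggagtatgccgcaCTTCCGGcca
Atp5b: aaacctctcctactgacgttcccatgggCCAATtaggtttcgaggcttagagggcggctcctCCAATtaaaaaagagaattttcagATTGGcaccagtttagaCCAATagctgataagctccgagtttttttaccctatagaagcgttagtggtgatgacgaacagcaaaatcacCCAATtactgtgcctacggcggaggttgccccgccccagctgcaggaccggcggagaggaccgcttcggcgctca
Cox6a1: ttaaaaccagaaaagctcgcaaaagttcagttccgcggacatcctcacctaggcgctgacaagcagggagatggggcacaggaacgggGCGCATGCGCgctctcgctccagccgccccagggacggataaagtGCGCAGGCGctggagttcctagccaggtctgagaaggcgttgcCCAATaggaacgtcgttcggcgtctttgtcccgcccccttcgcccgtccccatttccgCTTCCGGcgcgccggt
Cox5a: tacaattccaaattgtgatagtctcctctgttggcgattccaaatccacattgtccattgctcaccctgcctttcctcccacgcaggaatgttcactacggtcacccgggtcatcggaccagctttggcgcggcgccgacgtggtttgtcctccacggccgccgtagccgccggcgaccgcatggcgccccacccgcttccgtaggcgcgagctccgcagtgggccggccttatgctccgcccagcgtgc

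Uqcrh held an ETS match 10 bases before its start and a CCAAT box at 52. Cox6a1 held 2 stretches matching NRF1, at 162 and 117 bases, an ETS match at 16 and a CCAAT box at 74. Atp5b held 5 CCAAT boxes and neither of the others, and Cox5a held none of the 3 motifs. Of the 35 members with a promoter, 7 (20%) held the NRF1 motif, 8 (22.9%) the ETS motif and 19 (54.3%) the CCAAT box, whereas 5.16%, 6.91% and 33.8% of all 32851 promoter windows did. The letters AGATAAG, searched as the site of erythroid GATA factors, were in no member promoter and in 2.74% of all windows, and those searched for KLF1 (CCACACCC) were in 2 and in 3.20%. YY1 (AANATGGCG) matched 0 member promoters and 1.12% of all windows. The letters TATAAA, the core of the box of that name, were in 2 and in 12.4%. These matches are letters in a window, searched on both strands.

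Complex II was measured through 2 members. The signal of Sdhc, a membrane anchor of the complex, was not above background on any wt array and was detected on 3, 5 and 4 of the 5 mut arrays at 0, 12 and 24 h. Its mut signals at 12 h were 5.50, 6.08, 6.11, 5.91 and 5.88, against 5.29, 4.96 and 4.93 in wt, and the groups did not overlap. The fit called it higher in mut at 0, 12 and 24 h (adjusted p = 0.00733, 0.00256 and 0.00463). With wt below background no lower bound above 1 could be put on the fold. Sdhc passed the filter through the mut arrays alone, which favours a higher signal there, so its calls are no separate support for a difference. Sdhb, the iron-sulfur subunit, was not called in any genotype comparison. It was detected on 9 of 24 arrays with the probe used, and its other probe, detected on 8, gave the opposite sign over time in wt. At 0 h its wt signals were 5.15, 5.16 and 8.16, with array 3 alone above background. No direction over time is therefore given for it.

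Of the 7 complex III members tested, 3 were higher and 1 lower in mut at 0 h, 1 and 1 at 12 h, and 1 and 2 at 24 h. Over all genes 34.1% were higher and 8.4% lower at 0 h, 34.3% and 15.9% at 12 h, and 8.61% and 8.17% at 24 h. Uqcrh, the hinge protein next to cytochrome c1, was lower at all 3 times. At 0 h its wt signals were 11.97, 11.39 and 11.99 and its mut signals 9.75, 10.17, 10.14, 9.83 and 10.17. At 12 h the wt arrays gave 11.92, 11.33 and 11.80 and the mut arrays 9.66, 9.77, 10.10, 9.83 and 9.84. Every mut array was below every wt array at both times. At 24 h wt gave 11.67, 11.53 and 11.40 and mut 10.85, 10.79, 10.80, 10.64 and 10.76, still apart but closer. The differences were -1.77 ± 0.18, -1.85 ± 0.18 and -0.77 ± 0.18, or 3.42-, 3.59- and 1.7-fold lower (adjusted p = 3.62e-08, 2.96e-08 and 0.00376). The 12 h call held under all 19 alternatives run. Centring over all probes ended the calls at 0 h (-0.51, adjusted p = 0.25) and 24 h (-0.24, adjusted p = 0.75), and so did the authors' values (-0.68 and -0.97, adjusted p = 0.22 and 0.078). Centring over the kept probes ended the 24 h call as well (-0.62, adjusted p = 0.084).

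Of the other 6 members of complex III tested, 1 was called lower, at 24 h. This was Uqcrc2, a core protein, which gave 8.69, 8.68 and 8.13 in wt and 6.95, 6.98, 6.84, 6.78 and 6.81 in mut at 24 h. All 5 mut arrays lay below the wt arrays, a difference of -1.63 ± 0.54 (adjusted p = 0.0386) whose call was lost under 10 of 19 alternatives, among them leaving out any 1 wt array. Its differences at 0 and 12 h were 0.88 ± 0.54 and -0.71 ± 0.54 and were not called. Uqcrc1, the other core protein, was above background in wt at 24 h only, where the difference was -0.09 ± 0.23 (adjusted p = 0.808). It was called higher in mut at 0 h, with no bound on the fold (adjusted p = 0.016), and not at 12 h (adjusted p = 0.0517). Cyc1, the haem-bearing cytochrome c1, was not detected on any wt array and on 1, 5 and 4 mut arrays. It was called higher in mut at the 3 times with no bound on the fold (adjusted p = 0.00807, 0.0134 and 0.0498). Having passed the filter through the mut arrays alone, which favours a higher signal there, its calls are no separate support for a difference. The 24 h call was lost under 13 of 19 alternatives, the replicate number as a block among them (adjusted p = 0.051). Uqcr11 was higher in mut at 0 h only (2.31 ± 0.42), where wt arrays 2 and 3 were below background (7.90, 6.17 and 5.25 in wt against 9.32, 9.47, 8.23, 8.44 and 8.27 in mut). With the 0 h arrays of lower background alone the difference was 0.42 (adjusted p = 0.34). Uqcrb was not called in any genotype comparison, nor was Uqcr10 by the probe used. The second Uqcr10 probe, above background on all 24 arrays, was lower in mut at 12 h (-0.80 ± 0.30, adjusted p over probes = 0.0309).

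Cytochrome c itself sat at the edge of what could be measured. Cycs, the mobile carrier between complexes III and IV, was detected on 1 wt array at 24 h, 1 mut array at 12 h and 1 at 24 h. At 24 h its signals were 5.79, 6.06 and 5.89 in wt and 5.59, 5.42, 5.37, 5.10 and 5.24 in mut, without overlap. The fit called it lower in mut at the 3 times (adjusted p = 0.0483, 0.0185 and 0.0238). At 0 h it was not above background in either group and at 12 h not in wt, so no fold is given there, and -0.57 was the difference at 24 h. Its calls were lost under 14 of 20, 5 of 19 and 8 of 19 alternatives. With the replicate block the 0 h call ended (adjusted p = 0.056), and centring over all probes turned the 12 h sign (0.04).

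Of the 11 complex IV members tested, 4 were higher and 2 lower in mut at 0 h, 1 higher and 5 lower at 12 h, and 3 higher and 4 lower at 24 h. The shares of all genes higher and lower were 34.1% and 8.4%, 34.3% and 15.9%, and 8.61% and 8.17%. Cox6a1, a regulatory subunit, gave 10.98, 10.98 and 10.60 in wt and 9.71, 9.53, 9.06, 8.69 and 9.01 in mut at 12 h. At 24 h it gave 11.03, 11.26 and 10.85 and 9.92, 9.88, 9.60, 9.48 and 9.75. The genotypes did not overlap at any of the 3 times. The differences were -1.27 ± 0.25 at 0 h, -1.65 ± 0.25 at 12 h and -1.32 ± 0.25 at 24 h (adjusted p = 0.000313, 1.9e-05 and 0.000657), a 3.15-fold lower signal at 12 h. Its second probe gave -1.54, -1.70 and -1.32. The 12 h call held under all 19 alternatives, and the 24 h call under all but centring over all probes (-0.75, adjusted p = 0.067). The 0 h call was lost under 4 of 20, namely both centrings (-0.31 over kept probes and 0.40 over all), the authors' values (-0.04) and the fit to the 0 h arrays alone (adjusted p = 0.053).

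The complex IV subunit Cox6b2 gave 9.21, 9.14 and 8.96 in wt and 7.87, 7.50, 6.32, 6.60 and 6.95 in mut at 12 h, every mut array below every wt array. It was -2.05 ± 0.45 at 12 h and -1.43 ± 0.45 at 24 h (adjusted p = 0.00129 and 0.0313), and 8 of 19 alternatives ended the 24 h call. Cox6b1, which binds on the outer face of the complex, was not called at either time (-0.55 ± 0.37 and -0.44 ± 0.37). At 0 h it was called higher (1.16 ± 0.37), a value that was 1.93 without wt array 1 and 0.49 (adjusted p = 0.21) without wt array 2, and that turned to -0.48 (adjusted p = 0.10) with the lower-background 0 h arrays alone. Cox8a and Cox6c, both small subunits of the membrane part, were lower in mut at 12 h (-0.65 ± 0.18 and -0.55 ± 0.21) and 24 h (-0.67 ± 0.18 and -0.81 ± 0.21). Cox6c was also called at 0 h (-0.52, adjusted p = 0.049), where both centrings and the authors' values turned its sign (0.08, 0.78 and 0.33, the second being called higher with an adjusted p of 0.024). Cox7c was lower at 12 h alone (8.65, 8.60 and 8.78 in wt and 7.44, 7.38, 7.22, 7.32 and 7.48 in mut, -1.31 ± 0.38, adjusted p = 0.00964).

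Cox4i1, Cox5a and Cox5b surround the haem-bearing core of complex IV, and none of them was called lower at any time. Cox5a was not detected on any wt array at 0 h (5.55, 4.56 and 5.60) and was detected on all mut arrays (8.54, 9.02, 8.26, 8.77 and 8.13). Mut was at least 2.65-fold higher (adjusted p = 1.24e-07), and the call held under all 20 alternatives. At 12 h wt gave 6.59, 6.31 and 7.84 and mut 8.02, 8.08, 8.27, 8.01 and 8.53, and the difference was 1.27 ± 0.35. At 24 h it was 1.09 ± 0.35 (adjusted p = 0.0355), with the call lost under 8 of 19 alternatives. Wt array 3 was the highest of its group at both times. Cox5b was higher at 0 h (2.06 ± 0.35, adjusted p = 6.75e-05) and not called later (-0.10 ± 0.35 and -0.40 ± 0.35). Its wt signals at 0 h were 6.89, 4.82 and 5.15, with arrays 2 and 3 below background. Cox4i1 was not called at 0 and 12 h (0.02 and 0.03, intervals -0.33 to 0.38 and -0.32 to 0.39) and was called higher at 24 h (0.52 ± 0.17, adjusted p = 0.0393), lost under 11 of 19 alternatives. Cox7a2l, which helps to join complexes III and IV, was higher at 0 h alone (1.92 ± 0.51, adjusted p = 0.00414). Its wt signals there were 8.81, 5.05 and 8.81, array 2 being below background, and without that array the difference was 0.67 (adjusted p = 0.028). Cox7b, below background on all wt arrays, passed the filter through mut alone, and its call at 24 h (adjusted p = 0.00209) carries no bound on the fold.

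**Figure D3:**
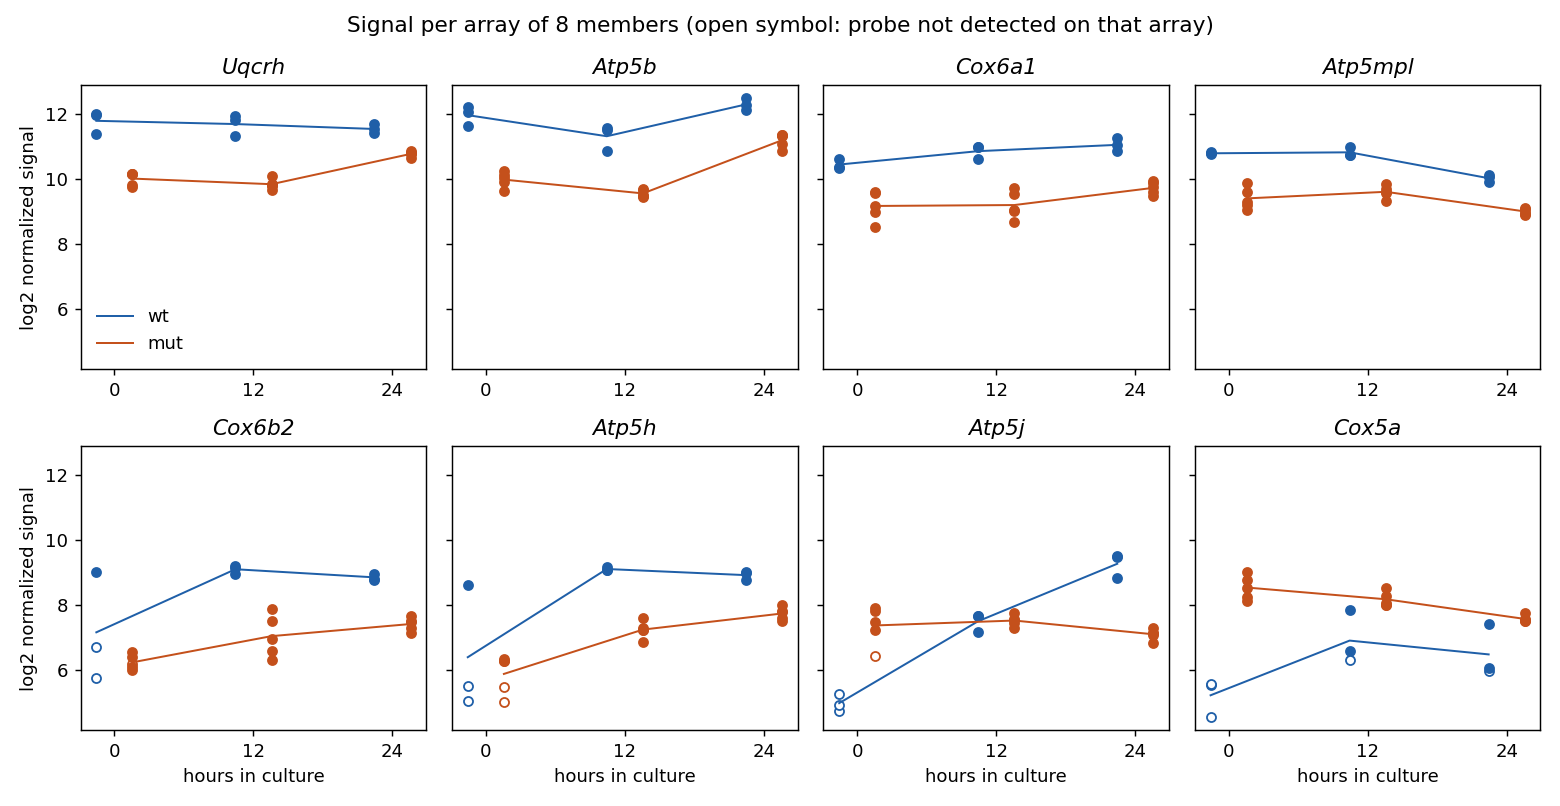
Log2 normalized signal on each array at 0, 12 and 24 h of culture for 8 members, in wt (blue, n = 3) and mut (orange, n = 5). Lines join group means, and open symbols are arrays on which the probe was not detected. Uqcrh, Atp5b, Cox6a1 and Atp5mpl are lower in mut throughout, Cox5a is higher, and Atp5j rises in wt from below background to 9.27 at 24 h whereas mut stays between 6.44 and 7.90.

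Of the 14 complex V members tested, 6 were higher and 2 lower in mut at 0 h, 2 higher and 4 lower at 12 h, and 1 higher and 4 lower at 24 h. The shares of all genes higher and lower were 34.1% and 8.4%, 34.3% and 15.9%, and 8.61% and 8.17%. The catalytic beta subunit, Atp5b, was lower at all 3 times. At 0 h wt gave 12.05, 12.21 and 11.61 and mut 9.89, 9.64, 10.23, 10.11 and 10.02. At 12 h wt gave 11.51, 11.55 and 10.87 and mut 9.69, 9.44, 9.66, 9.48 and 9.50. At 24 h they gave 12.12, 12.49 and 12.25 and 11.31, 11.35, 11.35, 10.87 and 11.06. Mut was below wt on every array at each time. The differences were -1.98 ± 0.19, -1.75 ± 0.19 and -1.10 ± 0.19 (adjusted p = 1.76e-08, 1.87e-07 and 0.000226), or 3.94-, 3.37- and 2.14-fold lower. The 12 h call held under all 19 alternatives. Centring over all probes ended the calls at 0 h (-0.69, adjusted p = 0.13) and 24 h (-0.61, adjusted p = 0.35), and the authors' values that at 0 h (-0.81, adjusted p = 0.16). The alpha subunit Atp5a1, its partner in the catalytic head, was never above background in wt and was not called. Of the other head and stalk subunits, Atp5c1 (gamma) was higher at 0 h alone (2.18 ± 0.40), and 0.45 (adjusted p = 0.12) with the lower-background arrays. Atp5d (delta) was called at 0 h against wt arrays all below background, with no bound on the fold (adjusted p = 0.00274), and was higher at 24 h (0.91 ± 0.29, adjusted p = 0.0339, lost under 8 of 19 alternatives). Atp5e (epsilon), never above background in wt, was not called.

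In the stator and membrane part of complex V, Atp5mpl, Atp5h and Atp5pb were lower in mut at 12 h. Atp5mpl, a small membrane subunit, gave 10.74, 10.73 and 10.98 in wt and 9.85, 9.69, 9.57, 9.31 and 9.61 in mut at 12 h, without overlap at any time. Its differences were -1.38 ± 0.19, -1.21 ± 0.19 and -1.02 ± 0.19 (adjusted p = 5.06e-06, 3.86e-05 and 0.000658), and centring over all probes brought that at 0 h to 0.12 and ended the 24 h call (-0.49, adjusted p = 0.33). The authors' values also ended the 0 h call (-0.22, adjusted p = 0.69). The stator subunit Atp5h gave 9.09, 9.17 and 9.07 in wt and 7.59, 7.25, 7.30, 6.86 and 7.25 in mut at 12 h. It was -1.86 ± 0.49 there (adjusted p = 0.00512, held under all 19 alternatives) and -1.18 ± 0.49 at 24 h (adjusted p = 0.101, groups apart). The wt 0 h arrays gave 8.63, 5.05 and 5.53, so array 1 alone was above background and this spread entered the shared error. Atp5pb, the stator subunit b, was -1.05 ± 0.25 at 12 h and -0.84 ± 0.25 at 24 h (adjusted p = 0.00202 and 0.0222), and 0.11 at 12 h after centring over all probes.

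Atp5j, the stator's coupling factor 6, was called in opposite directions at the start and the end. At 0 h its wt arrays were all below background (5.27, 4.77 and 4.94) and 4 of 5 mut arrays above it (6.44, 7.24, 7.81, 7.49 and 7.90), and mut was at least 1.18-fold higher (adjusted p = 5.91e-07). At 12 h the genotypes overlapped (7.67, 7.67 and 7.18 in wt, 7.31, 7.46, 7.57, 7.53 and 7.77 in mut, 0.02 ± 0.28). At 24 h wt gave 9.51, 9.47 and 8.83 and mut 7.31, 7.16, 7.08, 6.85 and 7.14. Every mut array was then below every wt array, 4.48-fold lower (-2.16 ± 0.28, adjusted p = 1.01e-05), and both calls held under all alternatives run. These values come from 1 of 3 Atp5j probes. The other two were above background on 2 arrays, both mut 12 h, and on 0, so which transcript gave the signal was not settled.

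The 3 genes for the c subunit, which forms the rotor ring and is encoded by several genes for 1 mature protein, were not called lower at any time. Atp5g3 gave 7.31, 6.86 and 6.75 in wt and 8.05, 8.22, 8.68, 8.79 and 8.55 in mut at 12 h, all mut arrays being higher. It was 3.19 ± 0.42 at 0 h, 1.48 ± 0.42 at 12 h and 0.79 ± 0.42 at 24 h (adjusted p = 2.24e-06, 0.00757 and 0.188). At 0 h wt gave 7.53, 4.74 and 4.85, with array 1 alone above background, so the size of that difference rests partly on signals below background. Atp5g2 was never above background in wt and passed the filter through the mut arrays alone, which favours a higher signal there. At 12 h the bound was at least 1.1-fold (adjusted p = 0.0248), which is no separate support for a difference. Atp5g1, likewise below background in wt and kept through the mut arrays alone, was called at 0 h alone, with no bound on the fold (adjusted p = 0.00036). Atp5j2 and Atp5l, membrane subunits measured on all 24 arrays, were not called at any time (0.31, 0.13 and 0.10 for Atp5j2, and -0.30 and 0.02 at 12 and 24 h for Atp5l).

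From 0 to 12 h, 19 wt members rose and 1 fell, 20 of 35 in all, where 44.7% of all genes were called, 35.9% higher and 8.75% lower. With the 0 h array of lower background alone 9 were called. From 0 to 24 h, 21 rose and 3 fell, 24 in all, against 49.2%, 37.1% and 12.2% of all genes, and 15 with that array alone. Centring gave 23 higher and 0 lower over kept probes and 22 and 0 over all probes. Among the 3 falls was Sdhb (-1.28), which was above background at 0 h on wt array 3 alone. Its other probe gave 0.71, so that fall is not read as a direction. Atp5j had the smallest p, from below background to 9.51, 9.47 and 8.83, at least 4.38-fold (adjusted p = 5.5e-10). Cox5b gave 6.89, 4.82 and 5.15 at 0 h and 8.96, 8.85 and 8.30 at 24 h (3.08 ± 0.39, adjusted p = 9.89e-07), with arrays 2 and 3 below background at 0 h. The rises of Atp5a1, Atp5g1, Atp5e, Cox7b and Cyc1 in wt were between signals below background at both times.

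Between 12 and 24 h, where the wt arrays were alike in background, 4 wt members rose and 1 fell, against 5.82% of all genes, 3.94% higher and 1.88% lower. Atp5j rose by 1.76 ± 0.32 (adjusted p = 0.000933). Atp5b rose from 11.31 ± 0.38 (SD, n = 3) to 12.29 ± 0.19, a difference of 0.98 ± 0.21 (adjusted p = 0.00464). Uqcrc1 came above background at 24 h, at least 1.11-fold (adjusted p = 0.0105), and Atp5a1 was called higher between signals below background. Atp5mpl fell, with a difference of -0.79 (adjusted p = 0.0275). Under the replicate block 8 members were called, 5 higher and 3 lower. Centring gave 2 higher and 2 lower over kept probes and 1 and 0 over all probes, and the count was 2 without wt 12 h array 3 and 3 without wt 24 h array 2.

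In mut, 7 members rose and none fell from 0 to 12 h, against 27.9% of all genes, 23.2% higher and 4.62% lower. They were Atp5a1, Atp5d, Atp5e, Atp5h, Cyc1, Sdhc and Uqcrc1, all of them below background on at least 2 of the 5 arrays at 0 h. The count was 3 without mut 0 h array 1 and 4 without mut 0 h array 2, mut 12 h array 2 or mut 12 h array 4. From 12 to 24 h, 4 rose and 4 fell, against 27.2%, 12.6% and 14.6%. Atp5b rose from 9.56 ± 0.11 (SD, n = 5) to 11.19 ± 0.21, or 1.63 ± 0.16 (adjusted p = 8.35e-08). Uqcrh rose from 9.84 ± 0.16 to 10.77 ± 0.08, or 0.93 ± 0.15 (adjusted p = 7.47e-05), and Uqcrb and Cox7b rose by 0.84 and 0.82. Cox8a, Atp5mpl, Atp5j2 and Atp5g2 fell, with differences of -0.60, -0.60, -0.50 and -0.79, and centring over kept probes and the authors' values turned the first 3 of these above 0. The split was 16 higher and 1 lower after that centring and 19 and 0 in the authors' values. From 0 to 24 h, 14 mut members rose and 6 fell, against 44.6%, 29.5% and 15.1% of all genes. Among those with the smallest p, Atp5b rose by 1.21 ± 0.16 and Atp5d by 1.45 ± 0.25, whereas Cox7b and Atp5a1 were below background on all 5 arrays at 0 h, so that Cox7b rose at least 1.07-fold and Atp5a1 has no bound. Centring gave 21 higher and 1 lower over kept and 15 and 1 over all probes, and the authors' values 26 and 0.

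The change from 0 to 12 h differed between genotypes for 8 members, all lower in mut than in wt, against 15.6% of all genes, 3.36% higher and 12.2% lower. Atp5j differed by -2.36 ± 0.40 (adjusted p = 0.00033), Cox5b by -2.17 ± 0.50, Cox5a by -2.04 ± 0.50 and Atp5c1 by -1.995. With the 0 h arrays of lower background 4 calls were made, with those of higher background 13, and without wt 0 h array 1, 2 or 3 there were 14, 3 and 4, and without wt 12 h array 3 there were 5. Atp5j and Cox5a were below background on all wt 0 h arrays, so their values are not measured differences. Cox5b and Atp5c1 were above background on 1 of the 3 wt 0 h arrays, so their values rest partly on signals below background. The change from 12 to 24 h differed for Atp5j (-2.18 ± 0.40, adjusted p = 0.0036) and Uqcrh (1.08 ± 0.25, adjusted p = 0.0285), where 1.3% of all genes were called, 0.908% higher and 0.392% lower. Atp5j rose in wt and was -0.42 ± 0.25 in mut (adjusted p = 0.203), whereas Uqcrh rose in mut and was -0.15 ± 0.20 in wt (adjusted p = 0.824). Centring over kept probes gave 4 higher and 1 lower there, centring over all probes 0 calls (5 members had an unadjusted p under 0.05 in limma), and the authors' values 2 and 1.

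**Figure D4:**
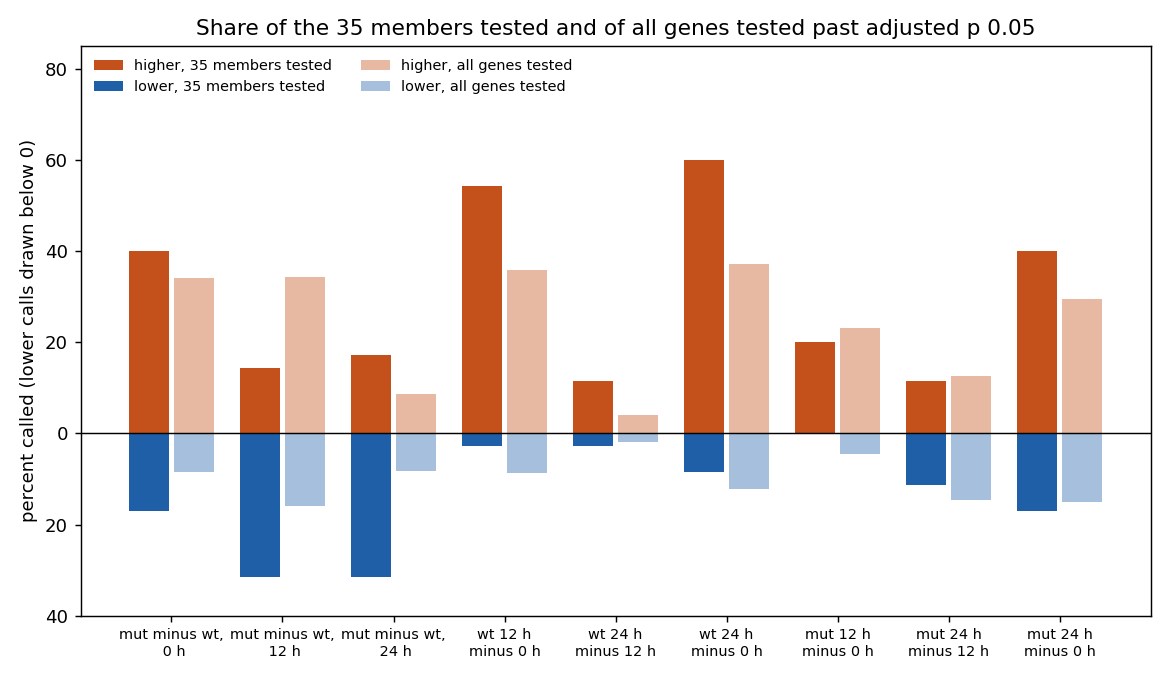
Percent of the 35 members tested (dark) and of all 4846 genes tested (light) called higher (orange, above 0) or lower (blue, below 0) in each comparison. At 12 and 24 h the members were lower in mut in 31.4% and all genes in 15.9% and 8.17%, and wt members rose from 0 to 24 h in 60% against 37.1% of all genes. How many of all genes passed the detection filter through the mut arrays alone was not counted.

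Genes that serve these complexes without being subunits were read from lists of known assembly factors, carriers and cytochrome c partners, under quantile normalization alone. Of 19 assembly factors tested, 5 were higher and none lower in mut at 0 h, 7 higher and 1 lower at 12 h, and none higher and 1 lower at 24 h, where 34.1%, 34.3% and 8.61% of all genes were higher. These counts are near or below the shares over all genes. Cox14, needed for making the mitochondrially encoded Cox1, was 3.59 ± 0.23 at 0 h and 1.72 ± 0.23 at 12 h (adjusted p = 3.7e-11 and 4.6e-06). Cox20, a chaperone of Cox2, was the lower one, at -0.99 ± 0.16 at 12 h and -0.82 ± 0.16 at 24 h (adjusted p = 5.34e-05 and 0.00108). Atpif1, the inhibitor of ATP synthase, was 0.53 ± 0.15 at 0 h and 0.52 ± 0.15 at 12 h and was not called at 24 h (0.39 ± 0.15, adjusted p = 0.0784). The phosphate carrier Slc25a3 was higher at all 3 times (1.42, 1.33 and 0.996) and the ADP/ATP carrier Slc25a5 at 0 and 12 h (2.63 and 1.39). Of the 24 arrays, Cox14 was above background on 21, Cox20 on 13, Atpif1 on 24, Slc25a3 on 14 and Slc25a5 on 22. Detection by group was not examined for these genes, so their differences are fitted values and may rest partly on signals below background. The 1 cytochrome c partner tested was not called.

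Markers of white cells and platelets moved with genotype beside these results, under quantile normalization alone. Over all genes 34.1%, 34.3% and 8.61% were higher in mut at 0, 12 and 24 h, and 8.4%, 15.9% and 8.17% lower. All 11 B cell markers tested were higher in mut at 0 h, 10 at 12 h and none at 24 h, and their summed linear signal was 495 to 1258 in wt and 2358 to 7929 in mut at 0 h. At 12 h the sums were 1281 to 1802 and 2791 to 8140, and at 24 h 883 to 1480 and 1292 to 2988. Neutrophil markers were higher for 7, 5 and 2 of 10 (802 to 2175 in wt and 3184 to 12777 in mut at 0 h, 1279 to 2150 and 2742 to 10866 at 12 h, 1186 to 2022 and 1822 to 8587 at 24 h). Of 7 T cell markers 6, 6 and 2 were higher and 1 lower at 12 h, with sums at 12 h of 884 to 915 in wt and 933 to 1361 in mut. Of 4 monocyte markers 3, 3 and 1 were higher (354 to 701 and 1255 to 3874 at 12 h), and of 8 platelet markers 6, 6 and 1 (473 to 1934 and 1829 to 3427 at 12 h). Cd4, Cd8a and Cd5 (T cells), Pax5 (B cells), Elane, Mpo and Mmp8 (neutrophils), Ccr2 and Fcgr1 (monocytes), Tubb1 (platelets) and Epb42 (reticulocytes) were not above background in any group. Among the markers tested, some were above background on mut arrays but on no wt array. These were Cd37 and Cd22 (B cells), Cd3g, Cd2 and Lat (T cells), Lcn2, Camp and Ngp (neutrophils), Cd14 and Adgre1 (monocytes), and Ermap and Bpgm (reticulocytes). They passed the filter through the mut arrays alone, so their higher calls are no separate support for a difference. Of 10 reticulocyte markers tested 1 was higher and 4 lower at 0 h, and 4 and 3 were higher and none lower at 12 and 24 h. The higher count at 12 h was near the share over all genes. The sums for the reticulocyte list were 99715 to 104693 in wt and 84781 to 96809 in mut at 0 h, without overlap. They were 91091 to 97366 and 96846 to 109246 at 12 h, and 102437 to 111771 and 109023 to 115791 at 24 h. The part of these cells in the members' differences was not tested.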

How the data were processed

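Reticulocyte RNA was measured on 24 single-colour Illumina bead arrays. Per the labels, RNA was extracted with RNeasy, amplified with TotalPrep and labelled by the DASL protocol. The deposited raw table holds average bead intensities per probe with no normalization, per the file headers, and the authors deposited beside each intensity its detection p-value. A further table holds the authors' processed intensities on a linear scale, by a method the sources used here do not give. The middle time is 12 h in the labels, which were followed, and 15 h in the submitters' key.

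Background was corrected by normexp, using control levels that limma derives from detection p-values, and intensities were quantile normalized with an offset of 16 and put on the log2 scale. Of 25697 probes, 6312 with detection p below 0.01 on at least 3 of 24 arrays were kept, with 1 probe per gene, the one of highest mean, giving 4846 genes. The 6 group means were fitted in limma 3.58.1 (R 4.3.3) with a trended prior, and p-values were adjusted by Benjamini-Hochberg over all genes, with a threshold of 0.05. Where a group was below background on every array, only a lower bound on the fold is given, or the adjusted p where none above 1 could be set. Interaction values, values under alternatives and values of genes that are not members are fitted throughout. Bounds set the detected group's mean against a mean over the arrays of the undetected group. Each of those arrays gave the larger of its dimmest signal above background and the member's own signal.

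The members and lists were chosen with earlier results of these data known. Genes named are the core subunits, the members changed most between genotypes without overlap, those of smallest p over time, and the complex IV isoforms. Promoter motifs and the split of 0 h arrays at a raw median of 200 were chosen after the data were seen. Alternatives covered scaling, background correction, the detection filter, array weights, probe choice, fewer groups and leaving out each array. Where the split of 0 h arrays left 1 wt array, its spread was taken to equal that of the rest. Replicate numbers are shared between times within a genotype. Residuals of same-numbered arrays correlated by over 0.1 in every pair from 12 to 24 h (wt 0.31 to 0.51, mut 0.18 to 0.67) and from 0 to 12 h in mut (0.11 to 0.40), and not in the other pairs of times. Steps were tested on simulated data. Promoters were searched with Python 3.11.15.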

Additional observations from a re-analysis of the deposited data

Results flagged for a closer look

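In 3 of the 105 sets formed by a member and a mut group, 1 array stood far from the rest, where chance gives about 1 in 20. Atp5a1 was 5.66 on mut 12 h array 1 and 5.19 to 5.24 on the other 4 arrays. Uqcrc1 was 5.72 on the same array and 6.00 to 6.10 on the others. Atp5g2 was 5.25, below background, on mut 0 h array 1 and 6.66 to 6.96 on the others.

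The change from 0 to 12 h differed between genotypes by the interaction term of the limma fit for 8 members, each with a lower value in mut. The differences were -2.36 for Atp5j, -2.17 for Cox5b, -2.04 for Cox5a, -1.995 for Atp5c1, -1.95 for Uqcr11, -1.81 for Cox7c, -1.71 for Cox6b1 and -1.15 for Atp5pb. Atp5j, Cox5a and Atp5pb were below background on all wt 0 h arrays, so their values are fitted and not measured. Cox5b, Atp5c1, Uqcr11 and Cox7c were above background on 1 of the 3 wt 0 h arrays and Cox6b1 on 2. Their values thus rest partly on signals below background. From 12 to 24 h the interaction was -2.18 for Atp5j and 1.08 for Uqcrh.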

How the results depend on the processing

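Depth here means signal over background, which at 0 h left many wt members without a measured level, so folds against those groups are lower bounds or are not given. Counts of members called that moved by over 1.5 times were as follows, and the causes were not tested. The authors' values gave 12 at 0 h, 31 for wt 0 to 12 h, 2 for mut 0 to 12 h, 19 for mut 12 to 24 h and 22 for the interaction from 0 to 12 h. Median centring over kept probes gave 3 for mut 0 to 12 h, 17 for mut 12 to 24 h, and 19 and 5 for the earlier and later interactions. Centring over all probes gave 6 at 24 h, 1 for wt 12 to 24 h and 0 for the later interaction in limma, with 5 at an unadjusted p under 0.05. Array weights gave 28 at 12 h, 28 at 24 h, 13 for wt and 27 for mut from 12 to 24 h, and 15 and 11 for the interactions. Fits to the arrays of that time alone gave 9 at 0 h and 27 at 24 h, and fits to the 12 and 24 h arrays alone 11 for wt, 18 for mut and 4 for the later interaction. The lower-background 0 h arrays gave 9 and 15 for wt 0 to 12 and 0 to 24 h and 4 for the earlier interaction, and those of higher background 16 for mut 0 to 12 h and 13 for that interaction. The replicate block gave 8 for wt 12 to 24 h, moved no other count by over 1.5 times, and among members called ended the calls of Cycs at 0 h and Cyc1 at 24 h alone. Leaving out each array in turn gave 17 to 20 calls at 0 h, 12 to 17 at 12 h, 8 to 16 at 24 h, 17 to 23 for wt 0 to 12 h, 2 to 5 for wt 12 to 24 h, 17 to 24 for wt 0 to 24 h, 3 to 7 for mut 0 to 12 h, 6 to 9 for mut 12 to 24 h, 18 to 20 for mut 0 to 24 h, and 3 to 14 and 1 to 2 for the interactions.

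Called values that changed sign were these. In mut minus wt at 0 h, Cox6c was 0.077 under centring over kept probes, 0.78 over all probes and 0.33 in the authors' values, Atp5mpl 0.12 and Cox6a1 0.40 over all probes, and Cox6b1 -0.48 with the lower-background arrays. At 12 h, Atp5pb was 0.11 and Cycs 0.036 over all probes. For wt 0 to 12 h, Atp5b was 1.17, 1.28 and 2.53 under the 3 scalings, and with the lower-background array Atp5c1 was -0.16, Atp5g3 -0.55, Cox6b1 -0.13 and Uqcr10 -0.010. For wt 0 to 24 h, Atp5mpl was 0.999, 1.09 and 2.34 and Cox4i1 1.39, 1.48 and 2.34 under the 3 scalings, and with that array Atp5c1 was -0.39, Cox6b1 -0.13, Cox6b2 -0.17 and Cox7c -0.31. For mut 12 to 24 h, Atp5j2, Atp5mpl and Cox8a were 0.34, 0.25 and 0.32 over kept probes and 0.92, 0.74 and 0.85 in the authors' values. For mut 0 to 24 h, Atp5j2 and Cox8a were 0.44 and 0.75 over kept probes, Atp5j2, Cox8a and Cyc1 were 0.21, 0.52 and -0.035 over all probes, and Atp5g3, Atp5j2, Cox5a, Cox7a2l and Cox8a were 0.21, 1.37, 0.45, 0.42 and 1.53 in the authors' values.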

Other observations

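Mut arrays 1 and 2 were above arrays 3 to 5 at each of the 3 times for 6 of the 35 members, namely Uqcr10, Uqcr11, Cox6a1, Atp5j2, Atp5l and Atp5mpl, and below them for 1, Atp5g3. For Uqcr11, a small subunit of complex III, the 0 h signals were 9.32 and 9.47 against 8.23, 8.44 and 8.27, and the 12 h signals 9.30 and 9.13 against 8.07, 8.23 and 8.41. For Cox6a1 the 12 h signals were 9.71 and 9.53 against 9.06, 8.69 and 9.01. The labels give no difference between these arrays, and these members were picked after their values were seen.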
